A study of Mus musculus with 7 samples.

Results

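The 10 genes described here are 4 STAT transcription factors (Stat3, Stat5a, Stat5b and Stat6), 4 feedback inhibitors (Socs1, Socs2, Socs3 and Cish) and 2 receptor chains (Il6st, which encodes gp130, and Lifr). They were chosen by name as members of 1 signalling pathway, with earlier results of these data known. All 10 were found among the 53379 gene IDs of the count tables and passed the filter on low counts, which left 14610 genes. The RNA came from EPCAM-positive cells of mouse uteri, that is, the luminal and glandular epithelium of the endometrium. The 4 mutant libraries came from individual CD-1 mice, 120 days old, of genotype LtfCre0/+; Brg1 fl/fl, in which Cre recombinase under the control of lactoferrin (Ltf), a gene of the oestrogen-stimulated uterine epithelium, acts on floxed Brg1. The 3 control libraries came from pools of wild-type CD-1 mice, with neither Cre nor the floxed alleles according to their genotype label, and belong to an earlier series. No label gives the age of the control mice. BRG1, the product of Smarca4, is the motor subunit of SWI/SNF complexes, which reposition nucleosomes, and the comparison asks how transcript levels in the epithelium differ where it is deleted.

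Cytokines of the interleukin-6 family bind receptors that share gp130, and leukaemia inhibitory factor (LIF) signals through LIFR paired with gp130. Receptor-bound JAK kinases phosphorylate STAT proteins, which enter the nucleus and activate genes, among them those of the SOCS family and Cish, whose products in turn dampen the receptors. In the mouse uterus, LIF acts on the luminal epithelium through STAT3 and is needed for embryo implantation. STAT5A and STAT5B act downstream of prolactin, growth hormone and other cytokines, and STAT6 downstream of interleukin-4 and interleukin-13.

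STAT dimers bind palindromes of the form TTCNNNGAA, and interferon regulatory factors bind repeats that include GAAANNGAAA. The promoters of 3 inhibitors are shown because they hold such letters. Each window runs from 250 bases before to 50 bases after the transcription start (RefSeq, GRCm38.p6), and capitals mark the matches. Positions count from 0 at the first base after the upstream part. Windows were on hand for 9 of the 10 genes, the exception being Socs2.
Socs3 (chr11:117969317-117969616, minus strand): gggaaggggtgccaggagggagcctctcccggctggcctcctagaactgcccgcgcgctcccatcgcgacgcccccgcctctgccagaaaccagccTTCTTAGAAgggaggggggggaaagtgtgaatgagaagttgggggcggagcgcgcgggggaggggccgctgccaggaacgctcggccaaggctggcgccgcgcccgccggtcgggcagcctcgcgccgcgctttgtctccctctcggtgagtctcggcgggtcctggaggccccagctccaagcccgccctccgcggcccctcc
Cish (chr9:107296409-107296708, plus strand): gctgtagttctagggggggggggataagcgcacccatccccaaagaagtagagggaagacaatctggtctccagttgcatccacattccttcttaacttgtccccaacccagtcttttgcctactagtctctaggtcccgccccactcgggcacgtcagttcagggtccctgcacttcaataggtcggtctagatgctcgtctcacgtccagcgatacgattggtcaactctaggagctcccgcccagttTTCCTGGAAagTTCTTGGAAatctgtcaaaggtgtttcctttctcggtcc
Socs1 (chr16:10785487-10785786, minus strand): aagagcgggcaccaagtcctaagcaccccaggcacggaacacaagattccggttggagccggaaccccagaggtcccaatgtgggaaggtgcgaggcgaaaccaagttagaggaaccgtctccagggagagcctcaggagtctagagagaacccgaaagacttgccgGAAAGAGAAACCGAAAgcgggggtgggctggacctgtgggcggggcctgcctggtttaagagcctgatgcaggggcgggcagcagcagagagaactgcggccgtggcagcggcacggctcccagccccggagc
The Socs3 window holds 1 TTCNNNGAA, starting at position -154, and the Cish window holds 2, at positions 0 and 11. TTCNNNGAA reads the same on the opposite strand. Of 32851 promoter windows of the same length, 8.30% held at least 1 TTCNNNGAA and 0.457% at least 2. Socs1 has no TTCNNNGAA here but has 2 overlapping copies of GAAANNGAAA, at positions -83 and -77, in the run GAAAGAGAAACCGAAA. At least 1 GAAANNGAAA, on either strand, was present in 3.44% of windows and at least 2 in 0.225%. The windows of Stat3, Stat5a, Stat5b, Stat6, Il6st and Lifr held neither set of letters. These matches describe the sequence and do not show binding.

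Reads counted in genes totalled 12436971 to 13364080 in mutants and 21372036 to 25862245 in controls. Levels are CPM, counts scaled to a total of 1e+06 gene reads. The floor used here, 3 reads and a measure of counting error alone, lay between 0.224 and 0.241 CPM for mutant libraries and between 0.116 and 0.140 CPM for control libraries. Smarca4 lay at 59.1 to 129 CPM in mutants, against 217 to 238 CPM in the controls (fold change on the log2 scale −1.64 ± 0.23 SE, adjusted p = 0.00967 by edgeR), over the whole gene and not the deleted part alone. Each set of libraries held 1 genotype only, so no batch term could be fitted, and genotype cannot be told apart from library set, pooling or age. Fold changes use TMM scaling, which lies 0.35 on the log2 scale below total count scaling in the median gene, so they sit lower than the ratio of the CPM values. Mutant replicate 1 stood apart in its Ltf level (85.0 CPM, against 1307 to 2108 CPM in the other mutants and 2600 to 3136 CPM in controls). The proliferation marker Mki67 was at 12.6 CPM there, against 237 to 421 CPM in the other mutants and 63.5 to 109 CPM in controls. All 9 epithelial markers were detected, with a summed level of 9269 to 11874 CPM in mutants, against 14194 to 16777 CPM in the controls.

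Of the 10 genes, 2 fell in mutants, Stat5a and Socs1, and none rose (edgeR's quasi-likelihood test at an adjusted p under 0.05, Benjamini-Hochberg over all tested genes). Among all 14610 tested genes, 6.18% were called lower and 5.37% higher. At an unadjusted p under 0.05, 5 of the 10 were lower and 0 higher, against 14.6% of all genes lower. DESeq2 and limma-voom each called the same 2 genes lower and 0 higher. Of the same 14610 genes, DESeq2 called 1445 lower and 1547 higher, and limma-voom 1162 lower and 782 higher, against 903 and 784 by edgeR. The median log2 fold change of the 10 was −0.65 and that of all tested genes 0.06, and 9 of the 10 values were negative, as were 46.5% of all values. The 9 epithelial markers had a median of −0.71, with all 9 values negative and 2 called lower. Their part in the members' values was not tested. In CPM, the mutant and control ranges were separate for 2 of the 10, with the mutants lower. They were separate for 35.6% of all tested genes and with the mutants lower for 8.55%. On the TMM scale they were separate for 5, Stat5a, Stat5b, Socs1, Cish and Lifr, each lower in mutants, against 31.5% of all tested genes separate and 16.1% with the mutants lower.

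**Figure D1:**
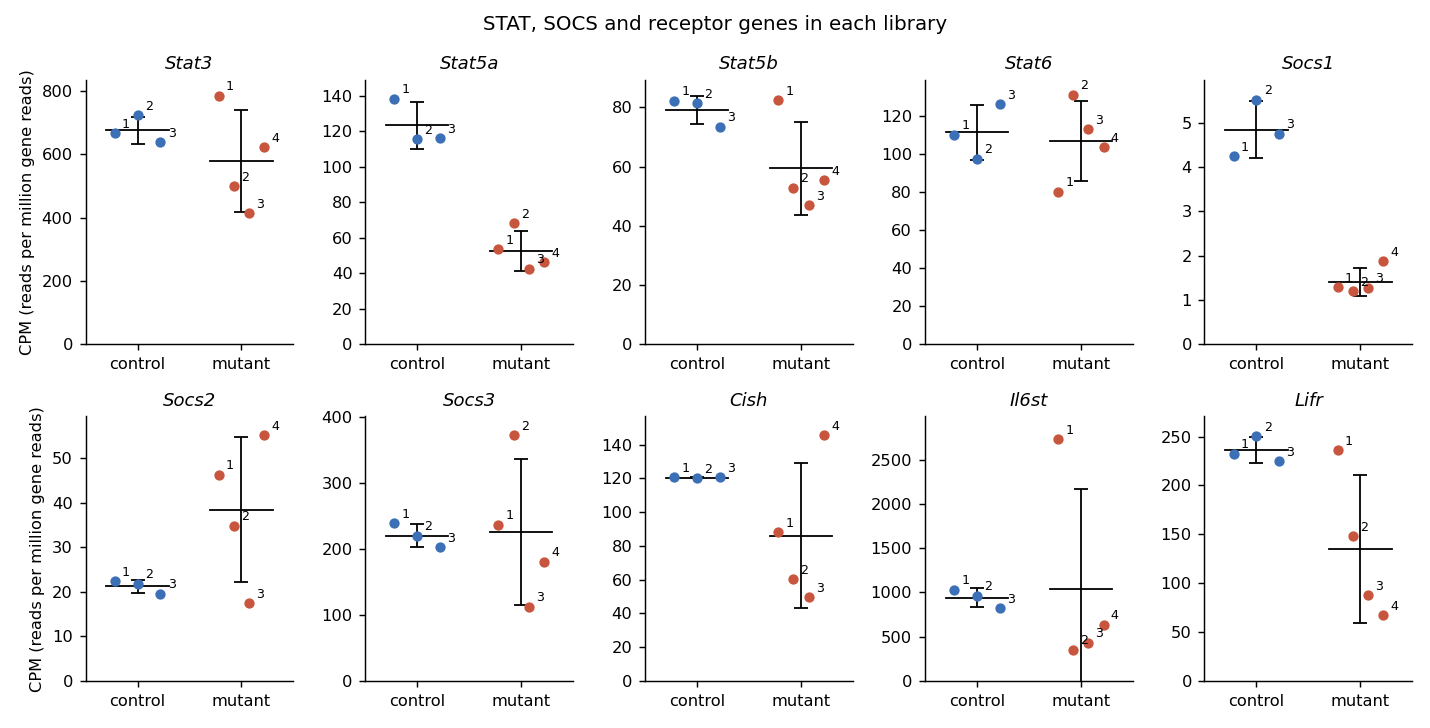
CPM (linear axis from 0) of each of the 10 genes in the 3 control libraries (blue) and the 4 mutant libraries (red), numbered by replicate, with the mean and SD in black. The mutants lie below every control for Stat5a and Socs1, while the other genes overlap in CPM, and for Il6st mutant replicate 1 lies at 2732 CPM and the SD bar is cut at 0.

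Stat5a, a STAT that mediates prolactin responses in the mammary epithelium, was at 53.4, 68.3, 42.5 and 46.1 CPM in mutant replicates 1 to 4 and at 138, 116 and 116 CPM in control replicates 1 to 3. Every mutant lay below every control. The level was 2.95-fold lower (log2 fold change −1.56 ± 0.24 SE, edgeR adjusted p = 0.0124, 4 of 4 mutants lower). The value kept its size when a control library was left out, but adjusted p became 0.0734, 0.0611 and 0.0642 without control replicates 1, 2 and 3. In those fits 133, 169 and 137 genes were called in all, against 1687 with every library.

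Stat5b, the close paralogue of Stat5a, was at 82.3, 52.9, 47.0 and 55.4 CPM in the mutants, against 82.2, 81.5 and 73.5 CPM in the controls. Mutant replicate 1 was level with the highest control and the other 3 mutants lay below them. This was short of the threshold (−0.74 ± 0.25 SE, edgeR adjusted p = 0.0958), and past it without mutant replicate 1 (−0.95 ± 0.15 SE, adjusted p = 0.00756). Stat5b and Stat5a lie next to each other on mouse chromosome 11 (GRCm38), and Stat3 follows. Stat5b spans 100780731 to 100850724 on the minus strand, Stat5a 100859351 to 100885169 on the plus strand and Stat3 100885098 to 100939540 on the minus strand. Stat5a and Stat3 share 72 bases at their ends on opposite strands. Of the 50-base words in their transcripts, 8.21% of those of Stat5a also occur in other genes and 11% of those of Stat5b, mainly in each other. A read wholly within such a stretch fits more than 1 gene and need not be counted for its own. The ratio of Stat5a to Stat5b, both in CPM per kilobase of exon, was 0.504, 1.0, 0.703 and 0.646 in the mutants and 1.31, 1.10 and 1.22 in the controls. All 4 mutants lay below the 3 controls in this ratio. Stat5a alone was already separate between the groups, so the ratio in part restates its fall and is no separate support. The log2 ratio was −0.53 ± 0.41 in mutants and 0.27 ± 0.12 in controls (SD, n = 4 and n = 3), a difference of −0.80 (two-sided exact permutation test over 35 splits, p = 0.0571, adjusted p = 0.114 over 4 ratios, smallest possible p = 0.0286).

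Reads on the strand opposite to Stat5a made up 13.5% to 26.5% of the reads of both strands in mutants and 4.37% to 10.4% in controls. These shares include the Stat5a reads in their total, so they in part restate its fall and do not show a rise of the opposite strand. The opposite-strand reads themselves numbered 104, 216, 158 and 222 in the mutants and 326, 288 and 137 in the more deeply read controls. The opposite-strand reads do not enter the values above. In the other 9 genes the opposite strand held at most 4.65% of reads in any library. With both strands counted together, Stat5a still fell (−1.33 ± 0.22 SE, edgeR adjusted p = 0.0156).

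Stat3, the main STAT of gp130 cytokines, was the most abundant of the 4 STATs per kilobase of exon, at 785, 499, 414 and 622 CPM in the mutants and 666, 722 and 638 CPM in the controls. Mutant replicate 1 exceeded every control and the other 3 mutants lay below them. The test was not passed with all libraries (−0.56 ± 0.26 SE, edgeR adjusted p = 0.198). Without mutant replicate 1 it was (−0.74 ± 0.19 SE, adjusted p = 0.0264). Stat6, the STAT of interleukin-4 signalling, was at 80.2, 131, 113 and 103 CPM in the mutants and 110, 97.6 and 126 CPM in the controls. The groups overlapped, and mutant replicate 1 was here the lowest library (−0.41 ± 0.22 SE, edgeR adjusted p = 0.244).

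Socs1, an inhibitor that binds JAK kinases directly and limits interferon and interleukin-4 responses, was the least abundant of the 10 per kilobase of exon. It lies on chromosome 16 at 10782240 to 10785536, minus strand. It had 16, 15, 16 and 25 reads in the mutants and 92, 118 and 123 reads in the controls, or 1.29, 1.20, 1.28 and 1.87 CPM against 4.24, 5.52 and 4.76 CPM. All mutants lay below all controls and well above the floor of 3 reads. The level was 4.38-fold lower (−2.13 ± 0.30 SE, edgeR adjusted p = 0.00988, 4 of 4 mutants lower). Without control replicates 1, 2 and 3 the value was −2.20, −2.0 and −2.11 and adjusted p was 0.0612, 0.0674 and 0.0622.

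Socs3, the feedback inhibitor that binds gp130, had overlapping groups. It was at 237, 373, 112 and 181 CPM in the mutants and 239, 220 and 203 CPM in the controls. The mutants spread on both sides of the controls, with replicate 2 above them and replicates 3 and 4 below (−0.28 ± 0.41 SE, edgeR adjusted p = 0.673), and the sign turned with total count scaling (0.03). The value was −0.67 without mutant replicate 2, −0.04 without replicate 3 and −0.14 without replicate 4. Relative to Socs3, Socs1 was lower in every mutant than in every control (log2 ratio in CPM per kilobase −7.22 ± 0.85 against −5.52 ± 0.26, SD, n = 4 and n = 3). That difference of −1.70 had p = 0.0571 in the two-sided exact permutation test and an adjusted p of 0.114 over the 4 ratios. Socs1 alone was already separate between the groups, so this ratio in part restates its fall and is no separate support. Socs3 belongs to the genes that respond quickly to stimulation, and the cells were dissociated by enzymes before sorting. Immediate early genes had a summed level of 9842 to 14269 CPM in mutants, against 10655 to 11157 CPM in the controls, highest in mutant replicate 2 as was Socs3. Of 15 such genes, 1 rose (Fosb, 1.19 ± 0.31 SE, edgeR adjusted p = 0.0493) and 2 fell (Ier3, −1.69 ± 0.42 SE, and Junb, −1.02 ± 0.24 SE). The Fosb call ended with no count filter (edgeR adjusted p = 0.0713). Among all tested genes, 5.37% were called higher and 6.18% lower. The part of the immediate early genes in the spread of Socs3 was not tested.

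Cish, a feedback inhibitor induced by STAT5, was at 88.1, 60.4, 49.8 and 146 CPM in the mutants and between 120 and 121 CPM in each control. Of the mutants, 3 lay below the controls and replicate 4 above them in CPM (−0.86 ± 0.33 SE, edgeR adjusted p = 0.128). On the TMM scale replicate 4, at 118 CPM, lay below the lowest control at 135 CPM. Socs2, the inhibitor of growth hormone signalling, was the only one of the 10 with a positive value. It was at 46.2, 34.9, 17.4 and 55.1 CPM in the mutants and 22.3, 21.8 and 19.5 CPM in the controls. Replicates 1, 2 and 4 lay above the controls and replicate 3 below them (0.51 ± 0.36 SE, edgeR adjusted p = 0.382). Of the 50-base words of Socs2, 4.53% occur in other genes.

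Il6st, the gp130 chain shared by the whole cytokine family, spread widely among the mutants. It was at 2732, 353, 431 and 634 CPM in mutant replicates 1 to 4 and at 1029, 964 and 823 CPM in the controls. Mutant replicate 1 was far above every other library, and the other 3 mutants were below every control. With all libraries the value was −0.15 ± 0.74 SE (edgeR adjusted p = 0.911), and its sign turned when mutant replicate 2, 3 or 4 was left out. Without mutant replicate 1 it was −1.34 ± 0.22 SE (adjusted p = 0.00760). Lifr, the chain that binds LIF, was at 236, 148, 87.4 and 67.0 CPM in the mutants and 233, 251 and 224 CPM in the controls. Mutant replicate 1 lay within the control range and the other 3 below it (−1.11 ± 0.46 SE, edgeR adjusted p = 0.149). Without mutant replicate 1 Lifr passed (−1.53 ± 0.34 SE, adjusted p = 0.0175). The log2 ratio of Lifr to Il6st was −2.54 ± 1.03 in mutants and −1.95 ± 0.14 in controls (SD, n = 4 and n = 3), and the difference did not pass the two-sided exact permutation test (p = 0.343). For Socs3 over Stat3 the log2 ratio was 0.27 ± 0.69 and 0.11 ± 0.12 (exact permutation p = 1).

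Leaving out mutant replicate 1 thus raised the number of the 10 called lower from 2 to 6, Stat3, Stat5a, Stat5b, Socs1, Il6st and Lifr, where 14.0% of all 14903 genes tested in that fit were lower. Mutant replicate 1 was the highest mutant for Stat3, Stat5b, Il6st and Lifr and the lowest for Stat6. Leaving it out was therefore bound to lower the mutant mean of those 4 genes, and their added calls are no separate support. Leaving out mutant replicates 2, 3 or 4 left 2 called, and leaving out any control library left 0. The receptor genes lie on chromosome 13 (Il6st, 112464070 to 112510086, plus strand) and chromosome 15 (Lifr, 7090614 to 7197489, plus strand). What sets mutant replicate 1 apart was not tested.

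**Figure D2:**
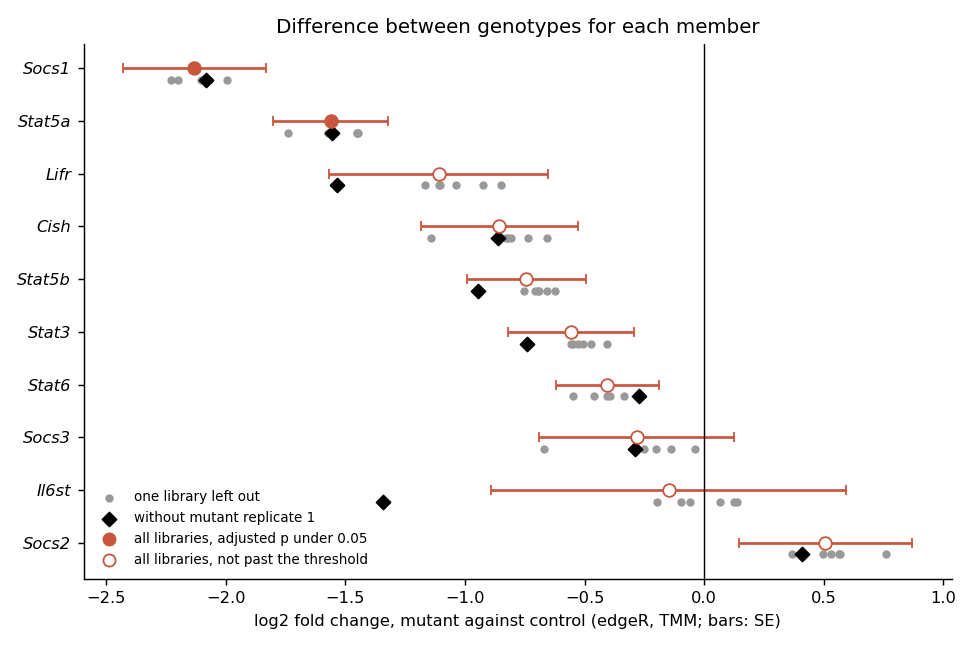
Log2 fold change of mutant against control for each gene with all libraries (red circles, bars are SE, filled where adjusted p is under 0.05) and with 1 library left out (grey points, black diamonds without mutant replicate 1). Socs1 and Stat5a keep their size throughout, and Il6st moves from −0.15 to −1.34 without mutant replicate 1.

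Levels of different genes were compared per kilobase of exon. In the controls Il6st (84.6 ± 9.5 CPM per kilobase), Socs3 (76.4 ± 6.2) and Stat3 (70.9 ± 4.5; SD, n = 3) led, with overlapping ranges between neighbours and a gap below Stat3. Stat6 (25.3 ± 3.3) and Lifr (21.9 ± 1.2) came next and overlapped each other. Cish (18.8 ± 0.048) and Stat5a (17.3 ± 1.8) also overlapped, with Stat5b just below at 14.3 ± 0.87 and separate from Stat5a. Socs2 (2.23 ± 0.16) and Socs1 (1.66 ± 0.22) were far lower, and separate from each other. In the mutants the leading 3 genes kept that order by mean (93.5 ± 102, 78.1 ± 38.3 and 60.8 ± 16.9; SD, n = 4), but Il6st exceeded Socs3 in 1 of 4 libraries and Socs3 exceeded Stat3 in 1 of 4. Stat5a, at 7.37 ± 1.6, moved below Stat5b, at 10.7 ± 2.83, with overlapping ranges and Stat5b higher in 3 of 4 libraries. Among neighbours in the mutant order, only Stat3 and Stat6, Stat5a and Socs2, and Socs2 and Socs1 had separate ranges. Exon lengths merge every annotated isoform, so a gene with long rare exons, such as Socs2 with 9.53 kilobases, can appear lower than its main transcript.

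**Figure D3:**
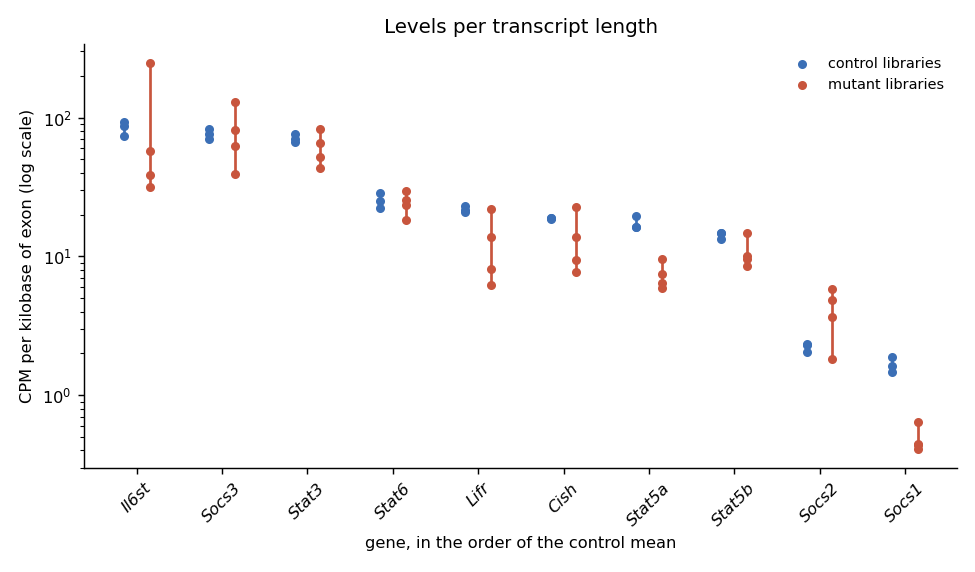
Level per kilobase of exon (log axis) of each gene in the 3 control (blue) and 4 mutant (red) libraries, in the order of the control mean, with lines from the lowest to the highest library. Socs1 and Stat5a show no overlap between the groups, and Il6st spans 31.8 to 246 CPM per kilobase in the mutants.

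The ligands did not pass the test. Of 8 ligands of gp130 and LIFR, 7 were tested and 0 were called by edgeR (2 higher and 1 lower at an unadjusted p under 0.05). DESeq2 called 1 higher and 1 lower, and limma-voom 1 lower. Of all 14610 tested genes, DESeq2 called 1547 higher and 1445 lower, and limma-voom 1162 lower. Lif itself was at 106, 870, 665 and 462 CPM in the mutants and 486, 482 and 620 CPM in the controls. Mutant replicate 1 was the lowest library, and the other mutants lay on both sides of the controls (−0.36 ± 0.59 SE, edgeR adjusted p = 0.711, and 0.01 without mutant replicate 1). Il6 (39.4 to 153 CPM in mutants, 50.8 to 61.3 CPM in controls), Osm (7.43 to 16 and 2.71 to 5.94 CPM) and Il11 (0.320 to 1.28 and 1.06 to 1.31 CPM) had values of 0.45, 0.97 and −1.0. The Osm ranges did not overlap, as was so, with the mutants higher, for 27.0% of all tested genes.

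Among 24 tested other chains of STAT-signalling receptors, 3 fell and 0 rose, against 6.18% of all tested genes called lower. DESeq2 called 7 lower and limma-voom 6, and neither called any higher. Both also called more of the 14610 genes lower, 1445 and 1162, than edgeR did (903). Il4ra, the interleukin-4 receptor chain that recruits STAT6, was at 136, 105, 115 and 109 CPM in the mutants and 336, 270 and 274 CPM in the controls. The groups were far apart (−1.67 ± 0.19 SE, edgeR adjusted p = 0.00609). Osmr, the partner of gp130 in oncostatin M receptors, was at 152, 114, 68.1 and 82.2 CPM against 198, 200 and 193 CPM (−1.24 ± 0.32 SE, adjusted p = 0.0488). Il6ra, the interleukin-6 binding chain, was at 64.7 to 81.4 CPM against 83.9 to 102 CPM (−0.71 ± 0.19 SE, adjusted p = 0.0491). The adjusted p of Osmr and Il6ra lay just under the threshold. Total count scaling ended both calls (Osmr −0.92, adjusted p = 0.0561, and Il6ra −0.38, adjusted p = 0.136), as did upper-quartile scaling and unstranded counts, and with 1 library left out the number of these chains called lower ran from 1 to 6. The 21 others did not pass.

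None of the 4 JAK kinases was called by edgeR, with 0 at an unadjusted p under 0.05 and 0 by DESeq2 or limma-voom. Jak2, the JAK of highest mean CPM, was at 480 to 754 CPM in mutants, against 517 to 662 CPM in the controls (−0.40 ± 0.24 SE, and −0.07 with total count scaling). Without mutant replicate 1, the highest of the mutants, Jak2 was called lower (−0.56 ± 0.17 SE, edgeR adjusted p = 0.0447). Jak1 was at 466 CPM in mutant replicate 1, against 200 to 226 CPM in the other mutants and 244 to 288 CPM in controls. That is the same placing of the 4 mutants against the controls as for Il6st (−0.28 ± 0.36 SE, 0.04 with total count scaling, and −0.69 ± 0.14 SE, adjusted p = 0.0151, without mutant replicate 1).

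Stat2, a STAT of interferon signalling, was at 81.5, 59.5, 42.5 and 54.7 CPM in the mutants and 15.4, 24.5 and 17.9 CPM in the controls. Every mutant exceeded every control, and the gene rose (1.30 ± 0.31 SE, edgeR adjusted p = 0.0391). With 1 control library left out, adjusted p was 0.0955 to 0.159, and with no count filter it was 0.0510. Stat4, a lymphoid STAT, did not pass (−1.64). None of the other 4 SOCS genes was called by edgeR, DESeq2 or limma-voom (1 higher at an unadjusted p under 0.05), and Socs4, with the highest mean CPM, had a value of 0.58 ± 0.20 SE. Among 10 PIAS proteins and phosphatases that restrain the pathway, 2 fell and 1 rose, against 6.18% of all tested genes called lower and 5.37% called higher. The SUMO ligase Pias4 was at 13.7 to 21.3 CPM in mutants, against 26.7 to 32.9 CPM in the controls (−1.03 ± 0.19 SE). The phosphatase Ptpn1, which acts on JAK2 and TYK2, was at 60.7 to 171 CPM against 176 to 286 CPM (−1.57 ± 0.38 SE). Ptpn6 (SHP-1), a phosphatase abundant in blood cells, was at 25.8 to 30.5 CPM against 9.45 to 10.2 CPM and rose (1.18 ± 0.20 SE, edgeR adjusted p = 0.0162).

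Immune cells also express Ptpn6 and many of the receptor chains. The summed level of 12 immune cell markers was 558 to 784 CPM in mutants, against 386 to 550 CPM in the controls, without overlap in CPM. On the TMM scale the sums overlapped, at 461 to 692 CPM and 453 to 628 CPM. The median log2 fold change of the 12 was 0.12, and 5 were negative. None of the 12 passed edgeR (1 lower at an unadjusted p under 0.05, 1 lower by DESeq2 and by limma-voom), and none was at 0 in every library. Cd74, with the highest mean CPM, had a value of 0.46 (adjusted p = 0.318). Stromal markers summed to 208 to 633 CPM in mutants, against 571 to 703 CPM in the controls, smooth muscle markers to 8.31 to 86.8 and 60.9 to 96.2 CPM, endothelial markers to 4.80 to 24.0 and 14.2 to 17.9 CPM, and mesothelial markers to 6.59 to 42.7 and 33.1 to 46.4 CPM. On the TMM scale the sums of the stromal (171 to 554 against 652 to 794 CPM) and mesothelial markers (6.40 to 34.7 against 38.8 to 52.3 CPM) were lower in every mutant. The part of these cells in the values above was not tested. In bulk RNA, fewer cells of a type and less RNA per cell cannot be told apart.

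Of 23 tested genes listed as STAT3 targets, 10 fell and 0 rose, against 6.18% of all tested genes called lower. This list, like the others here, was chosen with earlier results of these data known, so the comparison with all genes is not a neutral one. Their median log2 fold change was −0.94, against 0.06 for all genes. Of the 23 values, 17 were negative, as were 46.5% of all values, and 13 of the 23 genes were not called. Socs3, 1 of the 10 members, is not on this list and did not pass (−0.28 ± 0.41 SE, edgeR adjusted p = 0.673). The transcription factor Cebpb was at 40.4 to 61.7 CPM in mutants, against 220 to 318 CPM in the controls (−2.81 ± 0.22 SE, adjusted p = 0.00179 by edgeR), and the secreted glycoprotein Lrg1 at 6.47 to 37.5 CPM against 82.0 to 110 CPM (−2.75 ± 0.66 SE). The angiogenic factor Vegfa fell by 2.07 and the survival kinase Pim1 by 2.0 on the log2 scale. Pim1 was at 95.8, 389, 364 and 352 CPM in the mutants and 1059, 719 and 1020 CPM in the controls. Those that fell also included the survival gene Bcl2l1 (−0.99 ± 0.26 SE, edgeR adjusted p = 0.0480), Junb and Osmr, and, named here after their values were seen, Myc, Cebpd and Saa3. The Bcl2l1 call ended with upper-quartile scaling (adjusted p = 0.0624), total count scaling (0.122), unstranded counts (0.0537) and no count filter (0.0714). That of Junb ended with total count scaling (0.0619) and no count filter (0.0515). Many of the listed STAT3 targets also answer to other pathways, such as NF-kB and MAP kinases, so the count describes the list and not STAT3 activity. The number lower was 14, with 2 higher, without mutant replicate 1, and 6, 4 and 4 without mutant replicates 2, 3 and 4. It was 1, 2 and 2 without control replicates 1, 2 and 3, 6 with total count scaling and 7 with upper-quartile scaling, unstranded counts or no count filter. Among the called genes named from these lists, Cebpb and Il4ra stayed under the threshold whichever library was left out. Vegfa missed it without control replicate 1 (adjusted p = 0.0524), and the others, Stat2 and Fosb included, missed it without any 1 of the controls.

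Of 8 tested STAT5 targets, 2 fell, Pim1 and Bcl2l1, which the STAT3 list also holds, and 0 rose, against 6.18% of all tested genes called lower. Bcl2l1 lay just under the threshold. The milk protein genes Csn2, Csn3 and Wap were under the count filter. Of 12 tested STAT6 targets, 1 fell, Il4ra, counted above among the receptors, and 0 rose, against the same 6.18%. The median log2 fold changes of the STAT5 and STAT6 targets were −0.30 and −0.07.

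**Figure D4:**
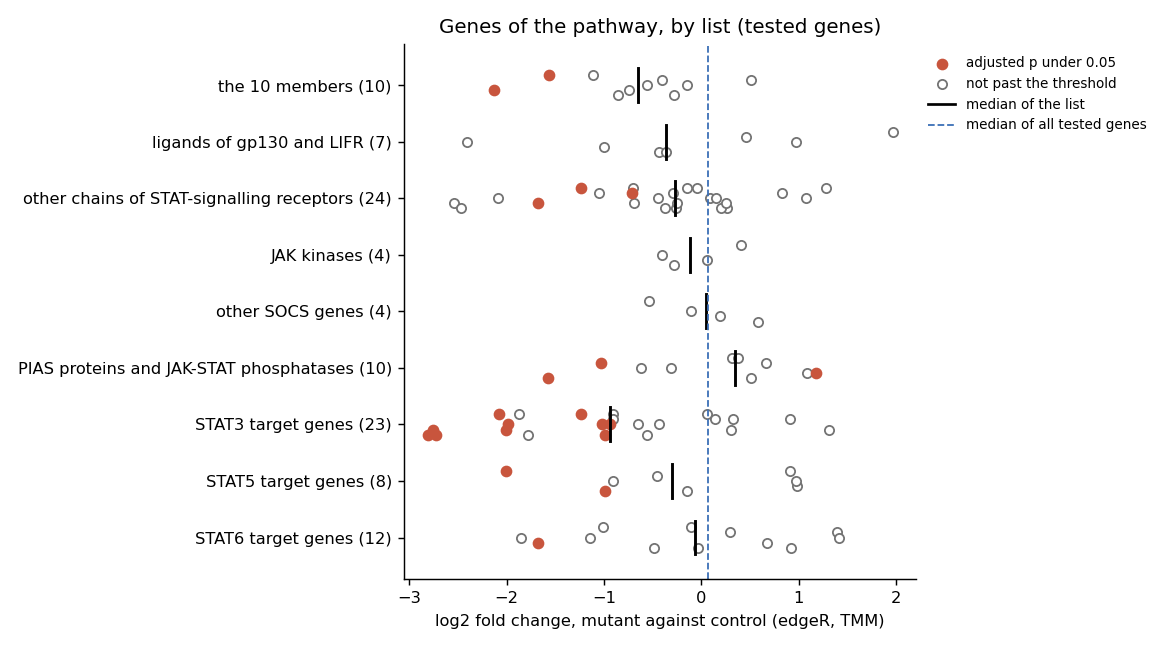
Log2 fold change of mutant against control for the tested genes of each list (number in brackets), filled red where adjusted p is under 0.05, with the median of each list in black and that of all 14610 tested genes (0.06) as a dashed line. Genes called lower are most frequent in the STAT3 target list (10 of 23). The lists were chosen with earlier results of these data known.

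The genes whose profile over the 7 libraries was most like that of a called member were found by the root-mean-square difference of log2 CPM, each centred on its own mean, among 10715 genes with a mean of at least 5 CPM. For Stat5a these were Gm45053 (difference 0.141), Ppp1r15a (0.152), a phosphatase subunit of the stress response, and Nucb1 (0.160), a calcium-binding Golgi protein. Nucb1 (45490458 to 45510406) and Ppp1r15a (45522916 to 45526268) lie close together on chromosome 7. For Socs1 they were Rps16-ps2 (0.217), a processed pseudogene whose reads are uncertain, Morc4 (0.236) and Fam83g (0.249). Being chosen for their likeness to a gene called lower, all 6 were called lower too, with log2 fold changes of −1.41, −1.53 and −1.50 for the first 3 and −2.28, −1.78 and −2.11 for the others.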

How the data were processed

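Cells were dissociated enzymatically from minced uteri and selected magnetically with an EpCAM antibody, and strand-specific mRNA libraries came from a KAPA kit, per the labels' protocols. The authors deposited 1 table of STAR gene counts per library (7 in all), in whole numbers with no scaling. The submitters' processing notes name cutadapt, Trim Galore, FastQC, STAR, DESeq2 and mm10, and give no versions. The authors' deposited table of log2 fold changes and adjusted p-values was read but is not quoted, because its mean signal of Socs1 is not that of these 7 libraries. Some genes of the pathway are not reported here.

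The reverse-stranded counts were used (94.8% to 95.6% of both stranded columns). Rows that name no gene stayed out of library sizes. Of 53379 gene IDs, 53274 matched GENCODE M21 (GRCm38), the source of symbols, coordinates and exon lengths. Genes kept by filterByExpr were compared by genotype, with no other term, by edgeR 4.0.16 under R 4.3.3 (quasi-likelihood, two-sided, TMM factors). The p-values were adjusted by Benjamini-Hochberg over 14610 genes, and 0.05 was the threshold. The script was tested on simulated data. Alternatives were other scalings, no filter, DESeq2 1.42.0, limma-voom (limma 3.58.1), unstranded counts, each library left out and the replicate number as a term. A p-value here reflects the variation among single mutant mice and among control pools. The member genes and gene lists were chosen with earlier results of these data known.

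Named genes were the 10 members, Smarca4, Lif, Il6, Il11, Osm and Jak1, and from each pathway list up to 3 called genes, those of largest change (mean CPM of 1 or more), or, with none called, its tested gene of highest mean. To these came the most abundant gene of each marker list and the 3 genes most like each called member. Ltf, Mki67 and the ratios between members were added later.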

Additional observations from a re-analysis of the deposited data

Results flagged for a closer look

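A library was looked for that lay apart from the rest among the 4 mutants in each of the 40 named genes, by Dixon's test at its 95% level. In such groups chance alone gives about 1 in 20, and 5 values met it. Mutant replicate 1 was the highest mutant for Il6st (2732 CPM) and for Jak1 (466 CPM), and the lowest for Pim1 (95.8 CPM). Mutant replicate 4 was the highest for Socs1 (1.87 CPM), still below every control. Mutant replicate 3 was the highest for the stromal collagen gene Col1a1 (166 CPM), the most abundant of the stromal markers.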

How the results depend on the processing

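The number of genes changed, 1687 with all libraries, was 2731 with total count scaling and 2 with the replicate block, each over the same 14610 genes. It was 1057 with no filter on low counts and 3290 with DESeq2, each over 29033 genes with at least 1 read. The DESeq2 counts given further above are over the 14610 genes only. The number ran from 133 to 4403 when 1 library was left out. Of the changed genes, 46.5% were higher, against 62.6% under upper-quartile scaling, 80.5% under total count scaling and 33.6% with no filter. Of the 10 members, 2 were lower with every scaling, with no filter, with DESeq2, limma-voom and unstranded counts, 0 with the replicate block, and 0 to 6 with 1 library left out. None was higher under any of these. Stat5a ranged from −1.74 to −1.23 and Socs1 from −2.23 to −1.77, with adjusted p up to 0.142 in the replicate block. The sign turned with total count scaling for Il6st (0.14), Socs3 (0.033) and Jak1 (0.037). With 1 library left out, Il6st ran from −1.34 (without mutant replicate 1) to 0.14, and was positive without mutant replicates 2, 3 and 4 (0.14, 0.12 and 0.07). Lif ran from −0.77 to 0.013 (positive without mutant replicate 1), and the ratio of Socs3 to Stat3 from −0.18 (without mutant replicate 2) to 0.31. The cause was not tested. Over the members, 133 of 150 alternative values kept their direction and side of the threshold, and over the 30 other named genes 335 of 450. For a gene not called with all libraries, as were 8 of the members, this means only that it stayed uncalled with the same sign. Stat5a and Socs1 each kept their call in 11 of 15 alternatives. Among the other called genes the number ran from 4 of 15 (Bcl2l1 and Il6ra) to 14 of 15 (Cebpb and Il4ra). Replicate numbers do not pair the samples: the correlations of same-numbered deviations were −0.02, −0.36 and 0.16, and not every library correlated best with its own number. Socs1, with 15 to 25 reads in mutants, is the member whose depth limits it most.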
